A study of Mus musculus with 16 samples.

Results

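Claudins are the membrane proteins that seal tight junctions and set which ions pass between epithelial cells, and each segment of the nephron has its own claudins. Zonula occludens proteins bind claudins and occludin to the actin cytoskeleton. Classical cadherins hold neighbouring cells together at adherens junctions through β-catenin (Ctnnb1), while plakoglobin (Jup) and desmoplakin (Dsp) belong to desmosomes, the spot-like contacts anchored to keratin filaments. The genes described here were all rows of the deposited table whose symbol was a numbered claudin, cadherin or zonula occludens gene (Cldn, Cdh or Tjp followed by a digit), or was 1 of 7 symbols named singly, Ocln, F11r, Cgn, Epcam, Dsp, Jup and Ctnnb1. The rule found 47 of 18132 genes: 20 claudins, 19 cadherins and 8 zonula occludens, other tight junction, catenin and desmosome genes. Of the 7 symbols named singly, 5 had a row, and Cgn and Epcam were not analysed here.

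The kidneys came from wildtype (WT) mice and mice deficient for IL-33 (KO), a nuclear cytokine of endothelial, epithelial and stromal cells, both on a C57BL/6J BomTac background and, where not stated otherwise, 8 weeks old. In unilateral ureteral obstruction (UUO), a metal clip closed the left ureter and the kidney was taken 24 h later, with buprenorphine given for pain. Whole-kidney RNA from 7 WT UUO, 5 KO UUO, 2 WT control and 2 KO control kidneys was hybridized to Illumina BeadChips, 1 array per kidney. The obstructed kidneys belonged to set 1 (3 WT, 2 KO) or set 2 (4 WT, 3 KO) of mice. The controls are described as untreated, their set is not in the labels, and the labels do not say whether kidneys within a group came from separate animals, so the p-values below measure the spread between these kidneys. Kidneys are named by the number in their label.

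All values are log2 intensities after quantile normalization, and a difference of 1 is a doubling of brightness. The Il33 row separated the genotypes, with 7.62 and 8.02 in the WT controls, 8.39 to 9.57 in the obstructed WT kidneys and 6.80 to 7.02 in the 7 KO kidneys. Over all genes the arrays correlated with each other at 0.944 to 0.997. Over the 9 junction genes that passed the test below in both genotypes, the obstructed WT kidneys 3818 and 3820 of set 1 were nearest to the controls for 4 each. In 3820 the injury marker Havcr1, a membrane protein of damaged proximal tubules, read 10.42 against 12.84 to 13.95 in the other obstructed WT kidneys and 7.22 and 7.24 in the WT controls. Results in WT kidneys are also given without arrays 3818 and 3820, a choice made after the values were seen. Of the 47 junction genes, 24 had a mean log2 intensity above the median of all genes (7.05) and 23 lay at or below it, close to the lowest mean in the table (6.73), where a change in RNA is compressed by background.

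The sequences in front of 4 claudins are shown because these genes had the largest changes among those with a promoter at hand. The table of RefSeq starts (GRCm38.p6) held 45 promoters for 32 of the 47 genes, and 5 of the 9 genes that passed the test in both genotypes had one. The 250 bases before the start are printed 5′ to 3′ on the strand of the gene for Cldn4 (chr5:134946935-134947184, minus strand), Cldn3 (chr5:134985964-134986213, plus strand), Cldn1 (chr16:26371840-26372089, minus strand) and the 2 starts listed for Cldn10 (chr14:118787621-118787870 and chr14:118854700-118854949, plus strand). Capitals mark matches, on either strand, to 4 motifs: CAGGTG, an E-box that Snail and Zeb repressors bind, TGANTCA, an AP-1 site, GTTAAT, the core of an HNF1 site, and AACCGGTT, a grainyhead-like site.
Cldn4: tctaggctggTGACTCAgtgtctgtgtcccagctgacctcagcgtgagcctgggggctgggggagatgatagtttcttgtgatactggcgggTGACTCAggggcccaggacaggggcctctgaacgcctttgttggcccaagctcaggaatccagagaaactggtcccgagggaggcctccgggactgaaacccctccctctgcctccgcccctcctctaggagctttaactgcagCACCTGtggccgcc
Cldn3: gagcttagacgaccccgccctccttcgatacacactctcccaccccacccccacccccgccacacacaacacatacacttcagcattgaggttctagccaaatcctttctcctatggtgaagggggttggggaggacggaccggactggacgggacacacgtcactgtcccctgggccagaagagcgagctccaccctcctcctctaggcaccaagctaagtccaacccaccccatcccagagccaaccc
Cldn1: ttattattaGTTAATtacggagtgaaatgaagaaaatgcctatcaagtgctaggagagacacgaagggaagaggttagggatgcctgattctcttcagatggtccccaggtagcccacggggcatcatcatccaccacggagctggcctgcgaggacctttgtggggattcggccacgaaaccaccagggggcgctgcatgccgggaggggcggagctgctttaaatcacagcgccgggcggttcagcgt
Cldn10, upstream start: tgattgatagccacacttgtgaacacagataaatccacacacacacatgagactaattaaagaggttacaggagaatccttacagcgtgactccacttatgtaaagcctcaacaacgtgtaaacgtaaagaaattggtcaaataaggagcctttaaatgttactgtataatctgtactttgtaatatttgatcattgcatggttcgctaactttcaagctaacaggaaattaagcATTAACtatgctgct
Cldn10, downstream start: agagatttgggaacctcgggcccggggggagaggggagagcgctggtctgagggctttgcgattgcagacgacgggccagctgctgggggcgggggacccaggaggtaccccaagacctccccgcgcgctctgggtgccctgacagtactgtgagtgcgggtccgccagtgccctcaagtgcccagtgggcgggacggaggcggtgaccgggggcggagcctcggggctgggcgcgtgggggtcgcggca

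The Cldn4 promoter held 2 AP-1 matches, beginning 240 and 158 bases before the start, and 1 E-box match 14 bases before it. Cldn1 had 1 HNF1 match 241 bases before its start, and the upstream Cldn10 start had 1 at 15 bases. The other 2 sequences had no match to these letters, and no matches overlapped. Among all 32851 promoters of this length, 17.2% held the E-box, 6.75% the AP-1 site, 6.43% the HNF1 core and 0.116% the grainyhead-like site. Of the 45 junction gene promoters, 22.2%, 6.67% and 11.1% held the first 3 motifs and 0 the fourth. The Cldn10 starts differed in base composition, with a GC content of 36.0% upstream and 72.4% downstream, and the row of the table does not say which of them the array measured. Cldn3 and Cldn4 are neighbours on chromosome 5, with no other coding gene between them. Cdh1 and Cdh3 on chromosome 8 and Cldn1 and Cldn16 on chromosome 16 lie next to each other in the same way.

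How did the junction genes respond to obstruction? After UUO 4 claudins (Cldn4, Cldn3, Cldn1 and Cldn7) and P-cadherin (Cdh3) were higher and Cldn10, Cdh16 and Cdh13 were lower than in control kidneys, in both genotypes. The largest rise was Cldn4, 3.87-fold in WT and 5.91-fold in KO kidneys, and the largest fall was Cldn10, 2.32-fold in WT and 2.67-fold in KO kidneys. Desmoplakin and Cdh6 were higher and Tjp3 lower in KO kidneys, where the difference between the genotypes in the response did not pass for any of them, and 35 of the 47 genes passed in neither genotype. At an adjusted p of 0.05 in limma, 6 of 47 junction genes (12.8%) were higher in WT kidneys after UUO against 6.97% of all genes, and 3 (6.38%) were lower against 8.22%. In KO kidneys 8 (17%) were higher against 10.6% of all genes and 4 (8.51%) were lower against 11.2%. Dim genes rarely pass, and among the 24 brighter junction genes 8 (33.3%) changed in WT kidneys against 29% of the 9066 brighter genes, and 10 (41.7%) in KO kidneys against 41.2%. These shares are close to the background, so the counts show nothing particular to junction genes. The median log2 fold change of the 47 genes was 0.0152 in WT and 0.0108 in KO kidneys, beside -0.000759 and -0.000570 over all genes. The bulk RNA cannot tell a change of RNA per cell from a change in the number of cells of a type.

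**Figure D1:**
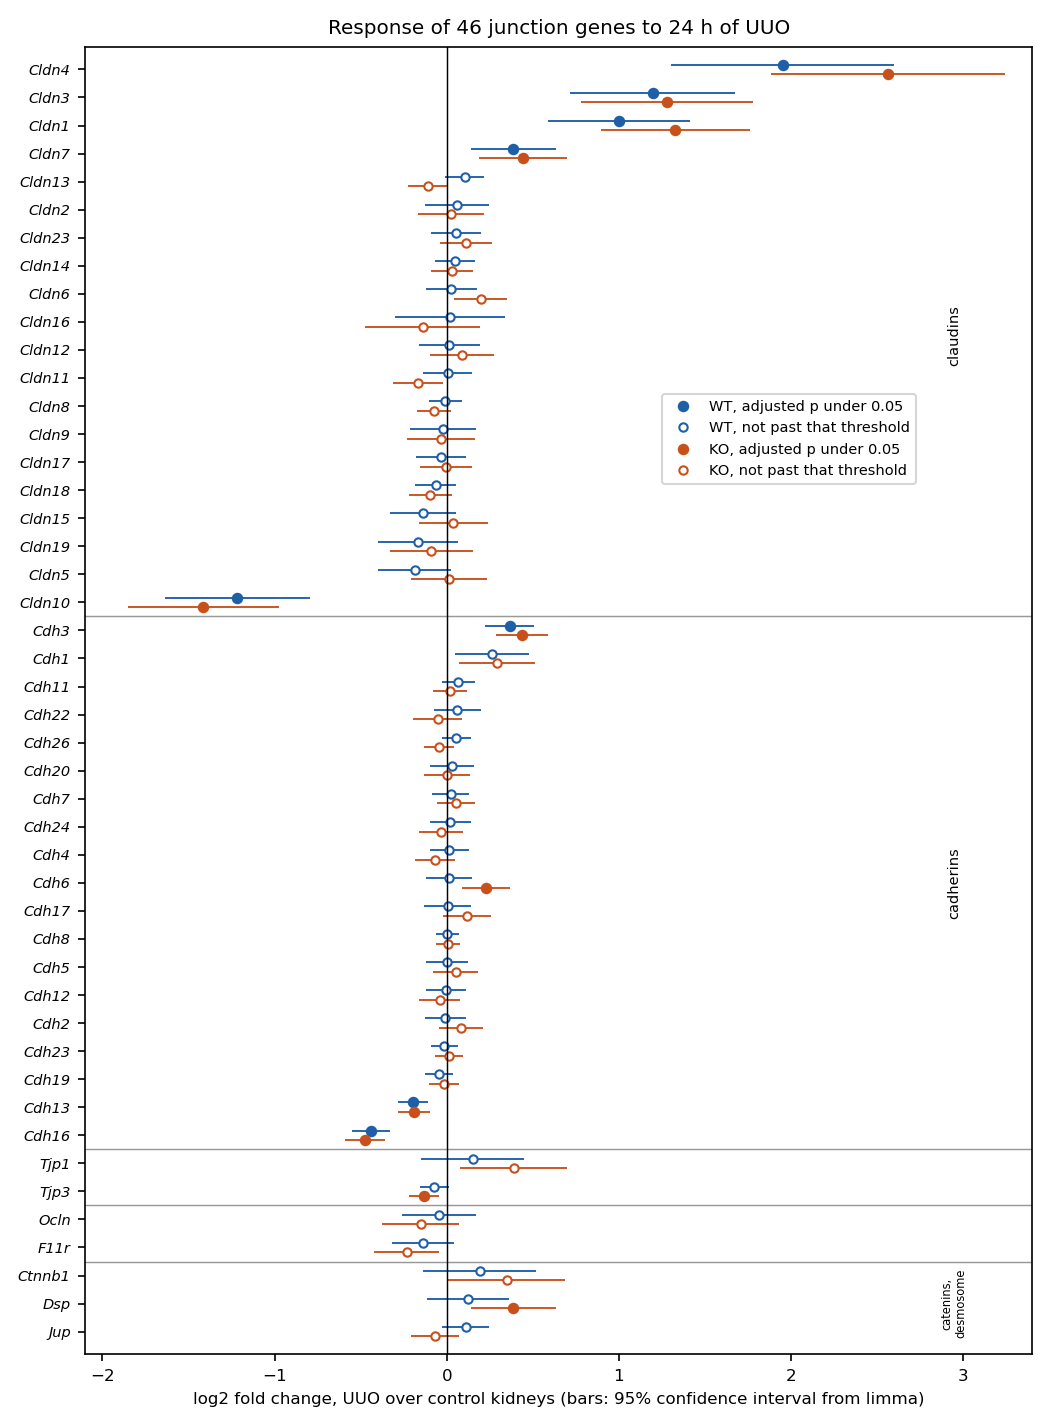
Log2 fold change of UUO over control kidneys (x axis, limma estimate with 95% confidence interval) for 46 junction genes, ordered by role and then by the WT response, in WT (blue) and KO (orange) kidneys, with filled points past an adjusted p of 0.05. Cldn4, Cldn3 and Cldn1 stand to the right and Cldn10 to the left in both genotypes, while 35 genes have open points in both.

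Of the 20 claudins, 4 rose and 1 fell in each genotype. Over all genes 6.97% were higher and 8.22% lower in WT kidneys, and 10.6% and 11.2% in KO kidneys. Cldn4, a claudin of the collecting duct and distal nephron, read 9.47 and 8.93 in the WT controls and a lowest of 9.93, a median of 11.30 and a highest of 11.57 in the 7 obstructed WT kidneys. In the KO controls it read 8.85 and 8.64, and in the KO UUO kidneys 11.37, 11.33, 11.44, 11.38 and 11.02. Every obstructed kidney lay above every control of its genotype, and kidney 3818 was the WT kidney at 9.93, more than 1 unit below the rest. The log2 fold change was 1.95 ± 0.30 (SE, n = 7 and 2, adjusted p = 0.000846 in limma) in WT and 2.56 ± 0.32 (n = 5 and 2, adjusted p = 7.01e-05) in KO kidneys. Without kidneys 3818 and 3820 the WT value was 2.11.

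Cldn3, the neighbour of Cldn4 and likewise a sealing claudin of the distal nephron, read 7.68 and 7.72 in the WT controls against 8.30 (lowest), 9.06 (median) and 9.31 (highest) after UUO. Cldn3 read 7.77 and 7.85 in the KO controls and 8.91, 9.10, 9.28, 9.13 and 9.04 in the obstructed KO kidneys. No obstructed kidney reached down to the controls, and the lowest WT readings were 8.30 in 3818 and 8.35 in 3820. Its log2 fold change was 1.20 ± 0.22 in WT (adjusted p = 0.00243) and 1.28 ± 0.23 in KO kidneys (adjusted p = 0.00107).

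Cldn1, a general barrier-forming claudin that in the kidney is known from the parietal cells of Bowman's capsule, read 7.48 and 7.51 in the WT controls and 7.87, 8.58 and 8.87 (lowest, median, highest) after UUO. The KO kidneys read 7.38 and 7.61 as controls and 8.93, 8.76, 8.77, 8.75 and 8.92 after UUO. The KO readings after UUO lay close together, while the WT readings ran from kidney 3820, close to the controls, up to the KO level. This gave a log2 fold change of 1.00 ± 0.19 in WT (2.00-fold, adjusted p = 0.00294) and 1.33 ± 0.20 in KO kidneys (2.51-fold, adjusted p = 0.000273), and 1.18 in WT without kidneys 3818 and 3820. Cldn16, the neighbour of Cldn1, differed by 0.02 in WT and -0.14 in KO kidneys and did not pass in either.

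Cldn7, a claudin of the distal nephron and collecting duct, rose least of the 4. It read 7.47 and 7.32 in the WT controls and 7.49, 7.79 and 8.0 (lowest, median, highest) after UUO. The KO controls read 7.29 and 7.36 and the obstructed KO kidneys 7.67, 8.04, 7.78, 7.75 and 7.64. The groups were separate in both genotypes, but in WT the upper control (7.47) and kidney 3818 (7.49) lay close together. The log2 fold change was 0.39 ± 0.12 in WT (adjusted p = 0.0340) and 0.44 ± 0.12 in KO kidneys (adjusted p = 0.0143). The WT call was lost under 8 of 25 alternative settings. Among them were the fits without either WT control (adjusted p = 0.103 without 3811 and 0.309 without 3812) and without any 1 of the set 2 WT kidneys (0.0511 to 0.0569). The KO call was lost without either KO control (0.127 without 3813 and 0.0671 without 3814).

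Cldn10 forms ion-selective paracellular channels, in the thick ascending limb and in the proximal tubule, and it was the claudin that fell. The WT controls read 12.16 and 12.01 and the obstructed WT kidneys 10.47, 10.82 and 11.47 (lowest, median, highest). The KO controls read 12.27 and 12.16 and the obstructed KO kidneys 10.77, 10.75, 10.77, 10.83 and 10.89. All obstructed kidneys were below all controls, with 3820 at 11.47 the nearest to them, while the KO kidneys lay close together between 10.75 and 10.89. The log2 fold change of Cldn10 was -1.22 ± 0.20 in WT (adjusted p = 0.00105) and -1.41 ± 0.20 in KO kidneys (adjusted p = 0.000193), and -1.39 in WT without kidneys 3818 and 3820.

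The other 15 claudins did not pass in either genotype. Cldn2, the cation and water channel of the proximal tubule, read 12.08 and 12.27 in WT controls, 12.01 to 12.39 in WT UUO, 12.10 and 12.13 in KO controls and 12.02 to 12.31 in KO UUO kidneys. These ranges overlapped, and the 95% confidence interval of its log2 fold change ran from -0.12 to 0.25 in WT and from -0.17 to 0.22 in KO kidneys. Cldn16, which with Cldn19 forms the magnesium and calcium pathway of the thick ascending limb, ranged from 8.58 to 9.26 in obstructed WT kidneys around control readings of 8.81 and 8.75, and its highest reading came from kidney 3820. Cldn19 differed by -0.17 in WT and -0.09 in KO kidneys, and the endothelial claudin Cldn5 by -0.19 and 0.01. Cldn6, Cldn9, Cldn12 and Cldn15 differed by between -0.14 and 0.20. For Cldn6 the KO groups were separate at 0.20, which missed the threshold (adjusted p = 0.0675 in limma). It passed under 3 of 24 alternative settings (adjusted p from 0.0441 to 0.0492). Cldn8, Cldn11, Cldn13, Cldn14, Cldn17, Cldn18 and Cldn23 had mean log2 intensities under 7.05 and stayed within 0.17 of the controls on the log2 scale. Of these, Cldn11 in KO kidneys (adjusted p = 0.108 in limma) passed under 3 of 24 alternative settings (adjusted p from 0.0312 to 0.0430).

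**Figure D2:**
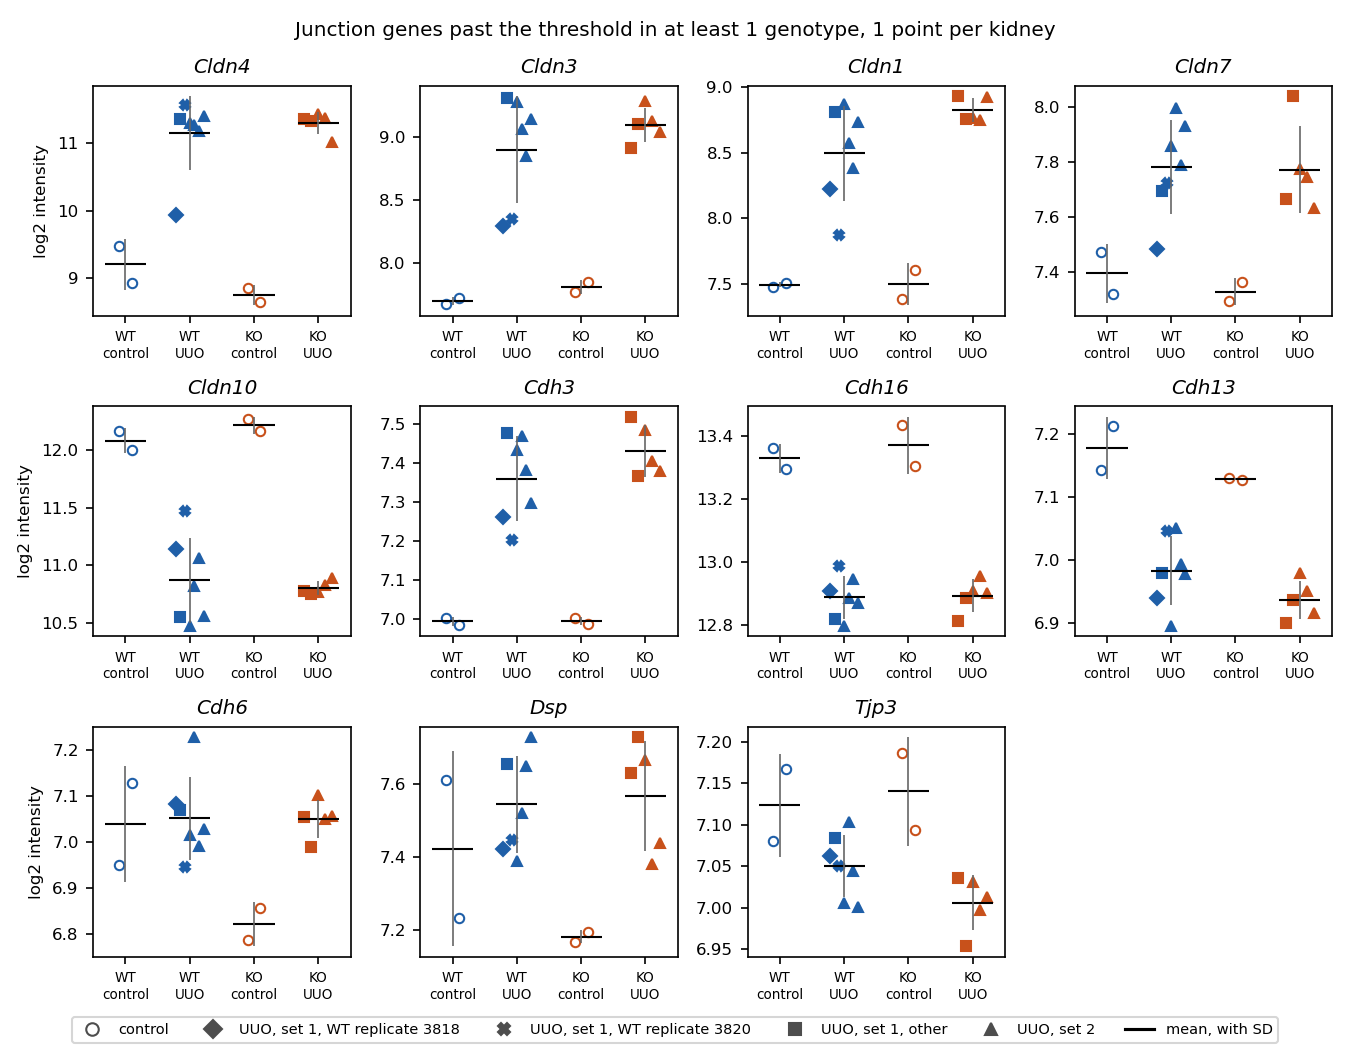
Log2 intensity (y axis, own scale for each gene) in each of the 16 kidneys for 11 junction genes past the threshold in at least 1 genotype, with the mean and SD of each group as lines. Circles are controls, squares and triangles obstructed kidneys of sets 1 and 2, and the diamond and cross WT kidneys 3818 and 3820, which lie between the controls and the other WT kidneys for Cldn3, Cldn1 and Cldn10.

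The plot of the 11 genes by kidney shows that kidneys 3818 and 3820 did not move alike. Counting the 9 genes that passed in both genotypes, 3818 was the obstructed WT kidney nearest to the controls for 4, 3820 for 4 and 3892 of set 2 for 1. Kidney 3820 had the highest Cldn4 reading of all 12 obstructed kidneys (11.57), beside the lowest Cldn1 (7.87) and the least fallen Cldn10 (11.47). Kidney 3818 had the lowest Cldn4 (9.93) and Cldn7 (7.49).

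The zonula occludens scaffolds Tjp1 and Tjp3 join claudins to the cytoskeleton. Tjp1 (ZO-1) read 7.31 and 7.13 in the KO controls and 7.47, 7.53, 7.63, 7.74 and 7.69 in the KO UUO kidneys, which were separate from the controls at a difference of 0.39 that missed the threshold (adjusted p = 0.0720), but passed it under 7 of 24 alternative settings (adjusted p from 0.00367 to 0.04998). In WT kidneys Tjp1 differed by 0.15 and the groups overlapped. Tjp3 (ZO-3) fell by 0.13 in KO kidneys (adjusted p = 0.0285) and differed by -0.07 in WT. The KO call for Tjp3 was lost under 7 of 24 alternative settings. Among them were the fits without KO control 3813 (adjusted p = 0.342) or KO UUO kidney 3822 (0.0571).

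Occludin and F11r, the remaining tight junction membrane proteins, missed the threshold. Occludin differed by -0.04 in WT and -0.15 in KO kidneys, with overlapping groups in both. F11r, the junctional adhesion molecule A, read 8.85 and 8.91 in the KO controls and 8.66, 8.66, 8.57, 8.64 and 8.72 in KO UUO kidneys. The KO groups were separate at a difference of -0.23 (adjusted p = 0.0762), which passed under 2 of 24 alternative settings (adjusted p = 0.00921 with the 2 groups alone and 0.0319 without WT UUO kidney 3892), and in WT, where they overlapped, it was -0.14 (adjusted p = 0.350).

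Among the 19 cadherins, 1 rose and 2 fell in WT kidneys, and 2 rose and 2 fell in KO kidneys. The shares of all genes were 6.97% higher and 8.22% lower in WT, and 10.6% and 11.2% in KO kidneys. Cdh16, the kidney-specific cadherin of tubular epithelium, read 13.36 and 13.30 in WT controls and 12.80, 12.89 and 12.99 (lowest, median, highest) in WT UUO kidneys. The KO readings were 13.43 and 13.31 as controls and 12.81, 12.89, 12.91, 12.96 and 12.90 after UUO. Every obstructed kidney lay below every control, and the fall had the smallest adjusted p of the 47 genes in both genotypes. The log2 fold change was -0.44 ± 0.05 in WT (adjusted p = 0.000128) and -0.48 ± 0.05 in KO kidneys (adjusted p = 3.98e-05). In WT it was -0.46 without kidneys 3818 and 3820.

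Cdh3 (P-cadherin), a classical cadherin of basal epithelia, read 7.0 and 6.99 in the WT controls and 7.20, 7.38 and 7.48 (lowest, median, highest) in the obstructed WT kidneys. The KO controls read 7.0 and 6.99 and the obstructed KO kidneys 7.52, 7.37, 7.49, 7.40 and 7.38. The controls of both genotypes sat near background and all obstructed kidneys were above them, with 3820 the lowest. The log2 fold change was 0.37 ± 0.07 in WT (adjusted p = 0.00208) and 0.44 ± 0.07 in KO kidneys (adjusted p = 0.000396), and with background subtracted by normexp it was 0.57 and 0.67. Cdh1 (E-cadherin), the next gene on the chromosome and the main epithelial cadherin, read 9.83 and 9.64 in the WT controls and 9.85, 10.06 and 10.13 (lowest, median, highest) after UUO. The WT groups were separate, though kidneys 3818 (9.85) and 3820 (9.86) lay just above control 3811. Its difference of 0.26 in WT (adjusted p = 0.0963) and 0.29 in KO kidneys (adjusted p = 0.0608) missed the threshold. It passed under 3 of 25 alternative settings in WT (adjusted p from 0.00760 to 0.0264), the fit without kidneys 3818 and 3820 among them, which leaves out 2 low readings, and under 5 of 24 in KO kidneys (0.0245 to 0.0431).

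Cdh13 (T-cadherin), a cadherin of endothelial and smooth muscle cells without a cytoplasmic tail, fell by 0.19 in both genotypes (adjusted p = 0.00530 in WT and 0.00433 in KO kidneys). Its readings were close to background, 7.14 and 7.21 in WT controls and 6.90 to 7.05 after UUO, and the WT call was lost without control 3812 (adjusted p = 0.120). Cdh6 (K-cadherin), a cadherin of the proximal tubule and its precursors, read 6.79 and 6.86 in the KO controls and 7.05, 6.99, 7.10, 7.05 and 7.06 in KO UUO kidneys. The KO controls were the lowest of all 16 kidneys, and the WT controls (6.95 and 7.13) overlapped the obstructed kidneys. Cdh6 rose by 0.23 in KO (adjusted p = 0.0187) and differed by 0.01 in WT kidneys. Its KO call was lost under 3 of 23 alternative settings, among them the fits without control 3813 (adjusted p = 0.180) or 3814 (0.0596). Endothelial Cdh5 (VE-cadherin) differed by 0.00 and 0.05 and mesenchymal Cdh2 (N-cadherin) by -0.01 and 0.08, in WT and KO kidneys. The other 12 cadherins were all near background, with log2 fold changes between -0.07 and 0.12.

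Of the catenin and desmosome genes, desmoplakin passed in KO kidneys. It read 7.17 and 7.19 in the KO controls and 7.63, 7.73, 7.67, 7.38 and 7.44 in KO UUO kidneys, a rise of 0.39 ± 0.12 (adjusted p = 0.0257). In the WT controls it read 7.61 and 7.23, a spread that covered most of the obstructed WT kidneys (7.39 to 7.73), and the difference was 0.12 (adjusted p = 0.584). The KO call was lost under 5 of 24 alternative settings. Among them were the fits without KO control 3813 (adjusted p = 0.152) or 3814 (0.117) and without KO UUO kidney 3822 (0.0534) or 3897 (0.0522). β-catenin differed by 0.19 in WT and 0.35 in KO kidneys (adjusted p = 0.515 and 0.155), with overlapping groups. Plakoglobin stayed near background at 0.11 and -0.07.

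For each gene that passed within a genotype, the groups were fully separated. Its exact two-sided permutation p was 0.0278 for 7 against 2 WT kidneys and 0.0476 for 5 against 2 KO kidneys, the smallest these designs can give. These genes were picked by limma on the same values, so their separation is no further support. Some genes that did not pass were separated too, such as Cdh1 in both genotypes, Cldn15 in WT and F11r in KO kidneys. The share of all genes with separate groups was not counted.

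**Figure D3:**
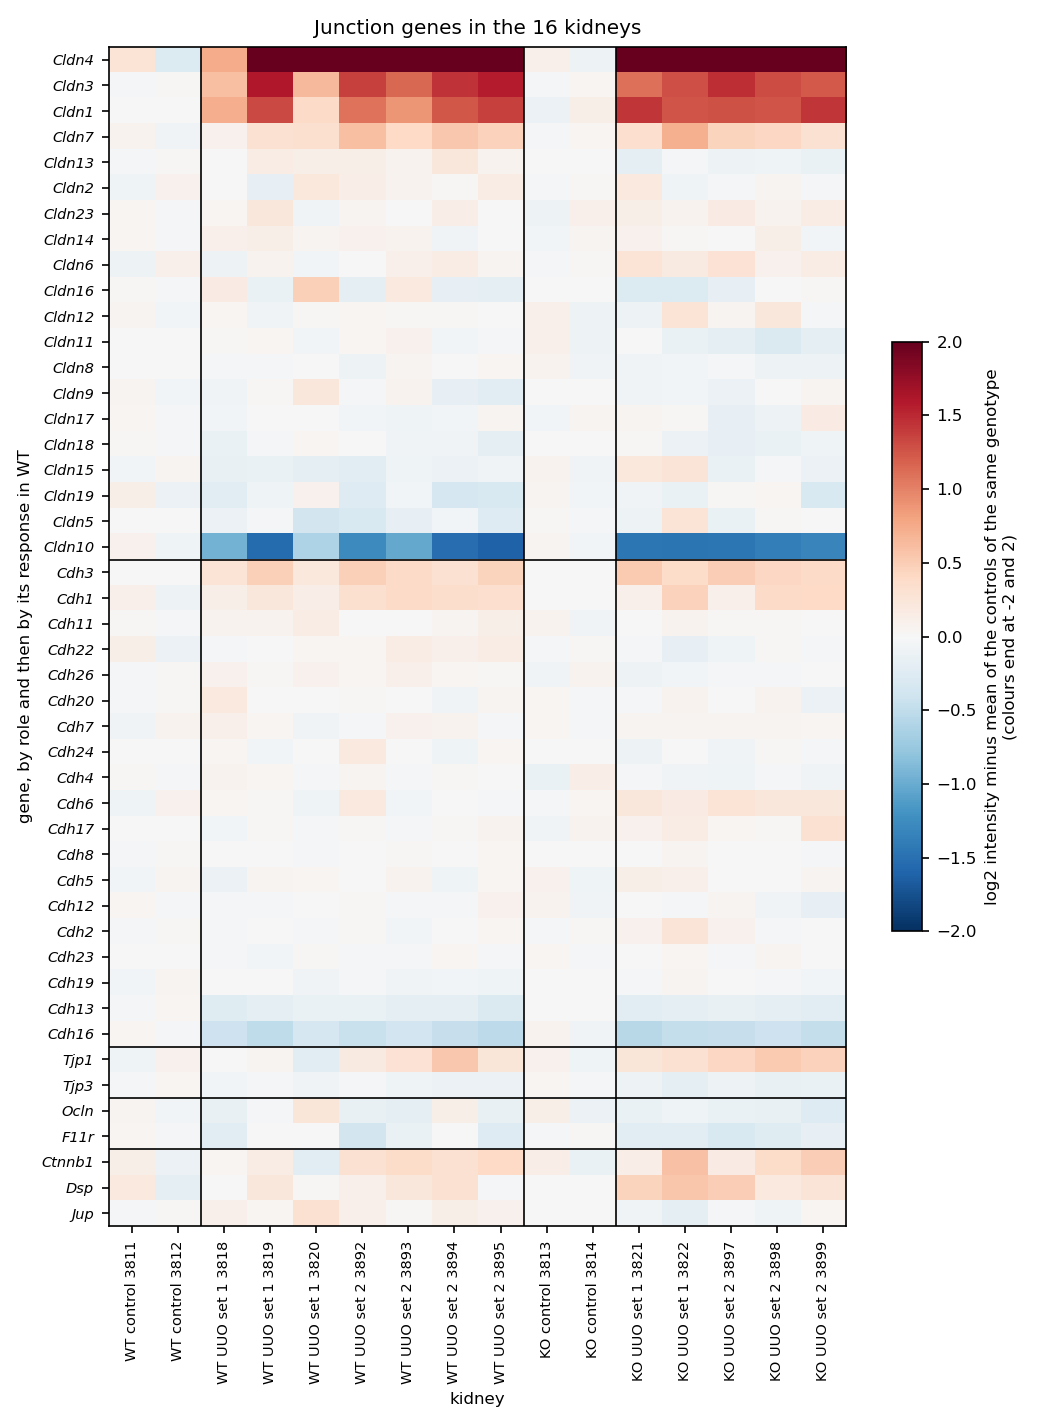
Log2 intensity of 46 junction genes (rows) in the 16 kidneys (columns) minus the mean of the controls of the same genotype, from blue (lower) to red (higher), with colours ending at -2 and 2. Cldn4, Cldn3 and Cldn1 are red and Cldn10 and Cdh16 blue in the obstructed kidneys, paler in WT kidneys 3818 and 3820 for Cldn3, Cldn1 and Cldn10, and most other rows are near white.

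In the heatmap of the genes by kidney most rows stayed near the controls. The known markers of each tubule segment are given as counts of called genes and as sums of linear intensities. Beside these counts, 6.97% of all genes were called higher and 8.22% lower in WT kidneys, and 10.6% and 11.2% in KO kidneys. Among the brighter genes 29% passed in WT and 41.2% in KO kidneys, in either direction. With so few markers the counts are a description. The proximal tubule sum over 6 markers was 46518 and 47428 in the WT controls, 14797 to 38276 in WT UUO, 48588 and 48946 in the KO controls and 9084 to 18940 in KO UUO kidneys. For the thick limb (3 markers) it was 17525 and 20113 against 7038 to 17917 in WT and 14846 and 18496 against 8835 to 12348 in KO kidneys. Of the 6 proximal markers 1 was lower in WT and 4 in KO kidneys, and of the 3 thick limb markers 2 and 1. Kidney 3820 had the highest proximal and thick limb sums of the obstructed kidneys. The thick limb transporter Slc12a1 fell, with a log2 fold change of -3.12 in WT and -3.13 in KO kidneys (adjusted p = 0.00319 and 0.00223), beside the fall of Cldn10, while Cldn16 did not pass. In the proximal tubule, Miox, an enzyme of inositol breakdown, fell as well (-2.05 and -3.13, adjusted p = 0.00232 and 8.19e-05), while Cldn2 did not pass. Of 6 markers of collecting duct principal cells 2 were lower in each genotype, the water channels Aqp2 (-1.08 in WT and -1.42 in KO kidneys) and Aqp3 (-1.35 and -1.79), while Cldn4, Cldn3 and Cldn7 rose. The other 4 did not pass, and ranged from -0.51 (Hsd11b2, KO) to 0.15 (Fxyd4, KO). The principal cell sum was 3042 and 3747 in the WT controls against 1787 to 3084 after UUO, and 3159 and 3341 against 1926 to 2252 in KO kidneys. The WT groups overlapped, through kidney 3818, and the KO groups did not. Of 4 distal convoluted tubule markers 3 were lower in WT and 1, Pvalb, in KO kidneys, and of 5 intercalated cell markers 2 were lower in each genotype, Slc4a1 and Slc26a4. The part of cell composition in the claudin results was not tested.

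Markers of cells other than tubules differed as well. The leukocyte sum (8 markers) was 1734 and 1915 in WT controls and 1872 to 4028 in WT UUO, 1350 and 1612 in KO controls and 2652 to 4617 in KO UUO kidneys. In both genotypes S100a8, S100a9, Lyz2 and Cd68 had higher means after UUO, and Csf1r had a lower one. Ptprc, Itgam and Cd3e stayed near background. The stromal sum (7 markers) was 2264 and 2590 against 2434 to 3844 in WT and 2135 and 2224 against 4435 to 4771 in KO kidneys. In KO kidneys both sums separated the groups, while in WT kidneys 3818 (leukocyte) and 3820 (stromal) lay among the controls. By the test, 2 leukocyte markers were higher and 1 lower in WT kidneys and 4 higher and 1 lower in KO kidneys, and 5 stromal markers were higher in each genotype, with Myh11, of smooth muscle, lower in WT. These counts, and those below for endothelial and urothelial markers, are a description beside the same shares of all genes. Endothelial markers (8) overlapped between KO groups, at 5771 and 6549 against 5426 to 6448, and lay lower in WT UUO (5251 to 6030) than in WT control kidneys (6326 and 6398). Of these 8 markers 2 were lower in WT kidneys (Esam and Flt1) and 3 in KO kidneys (Flt1, Tek and Tie1). The urothelial sum (7 markers) rose from 901 and 918 to 1026 to 3705 in WT and from 955 and 1028 to 1776 to 1936 in KO kidneys. That rise was carried by Krt20, a keratin of surface urothelium (log2 fold change 3.24 and 3.19), since the uroplakins, the defining proteins of the urothelial plaque, differed by -0.46 to -0.10, and 4 of them (Upk1a, Upk1b, Upk2 and Upk3b) were lower in KO kidneys.

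The wider set of junction genes held members called in each direction, and their shares are read against 6.97% of all genes called higher and 8.22% lower in WT, and 10.6% and 11.2% in KO kidneys. Of 26 other tight junction genes measured, 3 (11.5%) were higher and 4 (15.4%) lower in WT kidneys, and 2 (7.69%) were higher and 3 (11.5%) lower in KO kidneys, so that the KO shares were below or close to the background. Lsr, the angulin of tricellular contacts, rose by 0.55 and 0.69 (adjusted p = 0.00166 and 0.000205, WT and KO), and Csda (ZONAB, the ZO-1 associated transcription factor) by 0.50 and 0.44. Prkcz, the atypical protein kinase C of the polarity complex, fell (-0.79 and -1.19, adjusted p = 0.00131 and 4.47e-05), as did Cgnl1 (paracingulin, -0.31 and -0.28) and Ildr1 (another angulin, -0.30 and -0.29). Amotl2 was higher (0.48) and Esam, an adhesion molecule of endothelium, lower (-0.44) in WT kidneys, while in KO kidneys they differed by 0.32 and -0.04 and did not pass.

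Of 15 other adherens junction genes, 3 (20.0%) were higher and 3 (20.0%) lower in each genotype. With so few genes these shares, above those of all genes, are given as a description. Nectin-2 (Pvrl2) rose by 0.76 and 1.10 (adjusted p = 0.000200 and 7.54e-06), vinculin (Vcl) by 0.65 and 0.86 and α-catenin (Ctnna1) by 0.35 and 0.56, all parts of the link between adhesion and actin. Ctnnbip1, an inhibitor of β-catenin signalling, fell (-0.60 and -0.88), as did vezatin (Vezt, -0.23 and -0.27). Plekha7 was lower in WT (-0.33) and Ssx2ip in KO kidneys (-0.54). Of 10 other desmosome genes, plakophilin 2 (Pkp2) rose in both genotypes, by 0.62 and 0.82, plakophilin 3 (Pkp3) by 0.30 in KO kidneys. Of 18 gap junction genes none passed in WT kidneys at an adjusted p of 0.05 in limma. An unadjusted p under 0.05 was met by 4, but the share of all genes at that level was not counted, so nothing is read from it. In KO kidneys connexin 43 (Gja1) rose by 0.57 and connexin 32 (Gjb1) fell by 0.36.

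**Figure D4:**
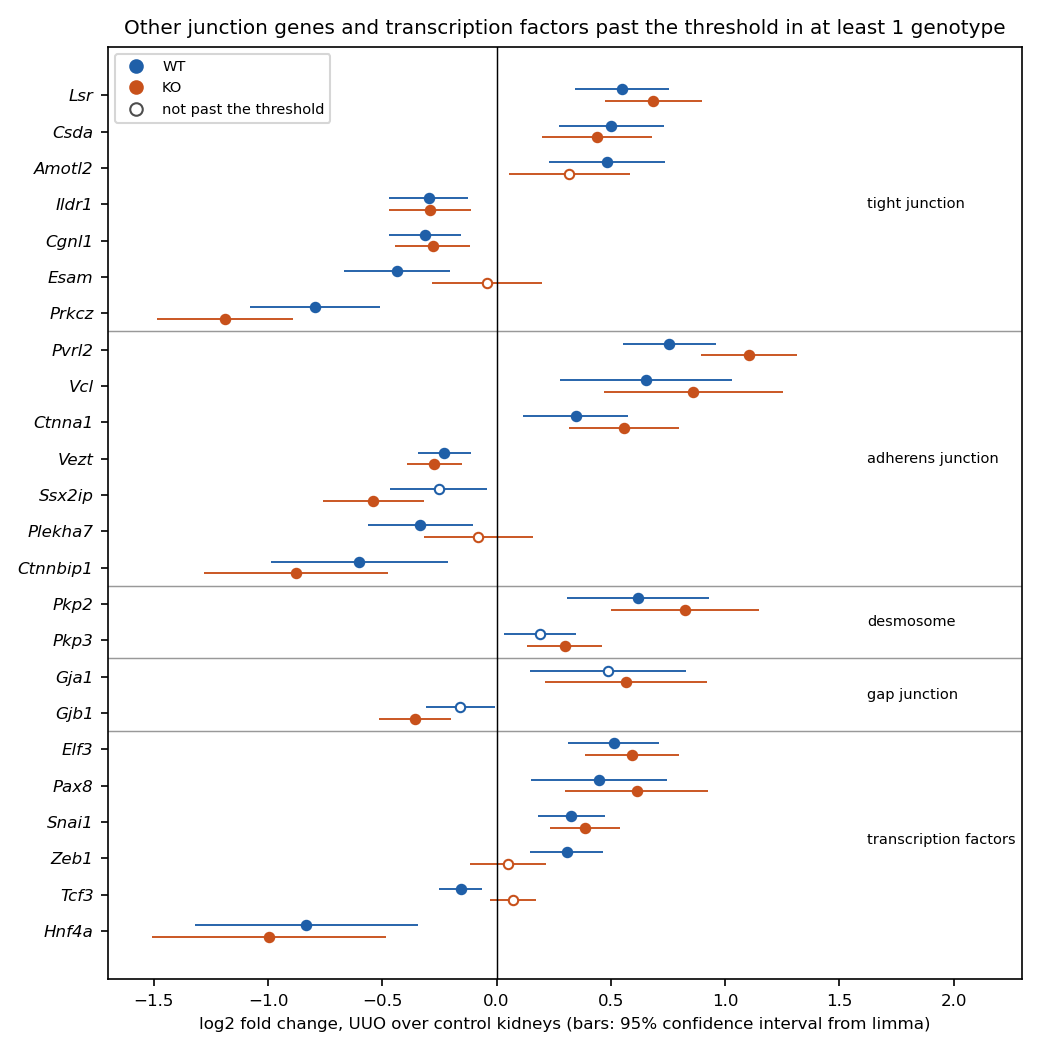
Log2 fold change of UUO over control kidneys (x axis, limma estimate with 95% confidence interval) for the 24 other junction genes and transcription factors past an adjusted p of 0.05 in at least 1 genotype, WT in blue and KO in orange, with open points where the gene did not pass. Pvrl2, Vcl, Pkp2 and Lsr lie to the right and Prkcz, Ctnnbip1 and Hnf4a to the left in both genotypes.

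Beside these genes the plot shows transcription factors known to act on junction genes, of which 17 were measured. In WT kidneys 4 (23.5%) were higher against 6.97% of all genes, and 2 (11.8%) lower against 8.22%. In KO kidneys 3 (17.6%) were higher against 10.6% of all genes, and 1 (5.88%) lower against 11.2%. With so few genes these shares are given as a description. Elf3, an epithelial ETS factor, rose by 0.51 and 0.59 (adjusted p = 0.00203 and 0.000482), Pax8, a factor of renal epithelium, by 0.45 and 0.61, and Snai1, a repressor of E-cadherin and several claudins, by 0.33 and 0.39 (adjusted p = 0.00522 and 0.00119). Hnf4a, a factor of differentiated proximal tubules, fell (-0.83 and -0.996, adjusted p = 0.0233 and 0.00682). Zeb1 (0.31) and Tcf3 (-0.16) passed in WT kidneys, with differences of 0.05 and 0.07 in KO kidneys.

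Did IL-33 deficiency alter the junction genes? No junction gene passed any of the 3 genotype comparisons. These share arrays with the comparisons above and with each other. For KO against WT after UUO over the 12 obstructed kidneys, at the threshold of the study's methods (a fold change above 1.3 with p under 0.05 and adjusted p under 0.25), 0 of 47 passed in limma against 0.011% of all genes, and 3 (6.38%) had an unadjusted p under 0.05 against 10.3%. These 3 were Cldn1, Ctnnb1 and Cdh4. The study itself used this threshold with fewer WT kidneys, counted probes instead of genes, and reported far more of them past it. The difference between the genotypes in the response to UUO gave 0 of 47 at an adjusted p of 0.05 against 0% of all genes, and 2 (4.26%, Cdh6 and Cldn13) at an unadjusted p under 0.05 against 4.74%. Between the control kidneys 0 of 47 passed against 0%, and 3 (6.38%, Cdh6, Cldn11 and Cldn13) at an unadjusted p under 0.05 against 3.66%.

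**Figure D5:**
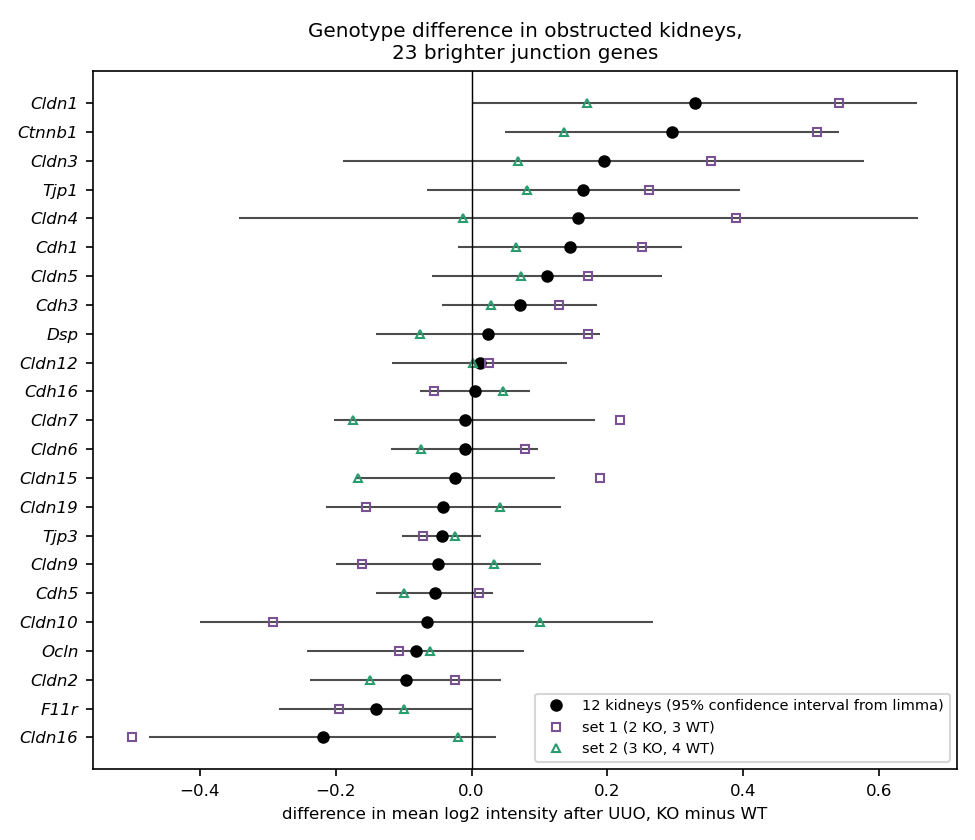
Difference in mean log2 intensity between obstructed KO and WT kidneys (x axis) for 23 brighter junction genes, over all 12 kidneys (black, 95% confidence interval from limma) and within set 1 (squares) and set 2 (triangles). The differences in set 1 reach 0.54 for Cldn1 and -0.50 for Cldn16, while those in set 2 lie closer to 0, at 0.17 and -0.02.

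Cldn1 was higher in obstructed KO than WT kidneys by 0.33 (95% confidence interval 0.00 to 0.66, unadjusted p = 0.0489, adjusted p = 0.481 in limma, exact two-sided permutation p = 0.0707), with overlapping groups. The difference was 0.54 within set 1 and 0.17 within set 2, and 0.15 without kidneys 3818 and 3820. β-catenin was higher by 0.29 (interval 0.05 to 0.54, adjusted p = 0.402, exact permutation p = 0.0379), 0.51 within set 1, 0.14 within set 2 and 0.18 without those kidneys. Both differences were over 3 times as large in set 1, which holds 3818 and 3820, as in set 2. Cdh4 (R-cadherin), at background, differed by -0.07 in both sets (adjusted p = 0.376, exact permutation p = 0.00884).

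For Cldn4, the rise in KO kidneys exceeded that in WT kidneys by 0.61 (95% confidence interval -0.33 to 1.55, adjusted p = 0.973). Its KO controls read lower than its WT controls, by 0.46 (interval -1.26 to 0.35), and after UUO the genotypes differed by 0.16 (interval -0.34 to 0.66), with -0.01 in set 2. Cldn10 responded in the genotypes with a difference of -0.20 (interval -0.80 to 0.41) and Cdh16 with -0.04 (interval -0.20 to 0.13). The Cdh6 responses differed by 0.22 (interval 0.02 to 0.41, unadjusted p = 0.0296, adjusted p = 0.973), beside a control difference of -0.22 between KO and WT kidneys. Cldn13, a claudin at background, differed by -0.21 (interval -0.37 to -0.05, adjusted p = 0.973). For Cldn4 and Cldn10 the intervals include differences as large as the whole response of Cldn7.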

How the data were processed

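Kidney RNA was hybridized to Illumina MouseRef-8 BeadChips, 1 array per kidney, and 16 arrays were grouped by the genotype and treatment in their labels. The authors imported the arrays with beadarray, the submitters' processing notes also name BeadStudio 2, and the deposited values are linear intensities, 1 per gene, from 95.5 to 23471, with array medians of 132 to 133. How background, normalization and joining of probes were done is not given in the sources used here. Without detection p-values in the table all genes were kept, and an intensity near the minimum is background, which compresses fold changes. 0 columns of values lacked a sample.

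Quantile-normalized intensities were taken to log2 and fitted with limma 3.58.1 (lmFit, eBayes; R 4.3.3), and p-values were adjusted over 18132 genes by the method of Benjamini and Hochberg. The responses, their difference and the comparison of controls came from 1 model of 4 groups, and KO against WT after UUO from the 12 UUO arrays. The number of arrays limits the precision. Exact permutation tests were two-sided. The scripts were tested on simulated arrays. Promoters and plots were made in Python 3.11.15 with pandas 2.3.3 and matplotlib 3.10.9.

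The counts cover all 47 junction genes, of which 1 is not reported here by itself. The genes named are those past an adjusted p of 0.05, a set of well-known junction genes, Il33, and from other lists those past it in both responses and any transcription factor past it. Havcr1, Cldn5, Cldn6, Cldn9, Cldn11 to Cldn13, Cldn15, Cldn17, Cldn18, Cldn23, Cdh4, the uroplakins, the leukocyte markers and list genes past it in 1 genotype were named after their values were seen. The junction genes and all lists were chosen with earlier results of these data known. Alternatives were no further normalization, normexp (offset 50), brighter genes alone, an intensity trend, array weights, the 2 groups alone, each set alone, the set as a block, and each array left out. The fit without WT kidneys 3818 and 3820 was added after seeing the data.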

Additional observations from a re-analysis of the deposited data

Results flagged for a closer look

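Among 25 named junction genes in the 2 obstructed groups (50 groups of readings), 3 had a kidney far from the others of its group, and chance flags about 1 in 20 groups. Cldn4 read 9.93 in WT UUO kidney 3818, below 11.18 to 11.57 in the other 6. In KO UUO kidney 3899 Cldn4 read 11.02, below 11.33 to 11.44 in the other 4. Plakoglobin (Jup) read 7.09 in WT UUO kidney 3820, above 6.82 to 6.90 in the other 6.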

How the results depend on the processing

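Leaving out each array in turn gave 4 to 6 junction genes higher (6 with all arrays) and 2 to 3 lower (3) in WT kidneys after UUO, and 5 to 9 higher (8) and 3 to 5 lower (4) in KO kidneys, with the 5 reached without KO control 3813 or 3814. With the UUO arrays of set 1 alone, which include 3818 and 3820, 0 were higher and 1 lower (Cdh16) in WT kidneys in limma. The set 2 arrays alone gave 9 higher and 3 lower in WT kidneys. With neither 3818 nor 3820, 7 were higher and 3 lower. With brighter genes alone, 2 were lower in KO kidneys, since Cdh13 is then not tested and Tjp3 had an adjusted p of 0.0550. Over 27 pairs of a gene and a comparison, 614 of 648 alternative values kept their direction and side of the threshold, 34 kept only the direction and 0 reversed. Genes not called with all arrays passed under some settings, Tjp1 in KO kidneys most often (7 of 24). The genotype comparisons gave 0 junction genes throughout, the set of mice as a block included. Genes near background are the least certain, since their intensities sit at the floor of the table.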
